A study of Mus musculus with 3 samples.

Results

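The regions described here are the strong H3K9ac summits that were private to the library labelled old: summits of that library on chromosomes 1 to 19 and X with a score of at least 10 and no summit of the young-labelled or ABC-labelled library within 5 kb. A total of 797 of the 16647 old-labelled summits of that score met the rule, which is 4.79% (percent of strong old-labelled summits). They were found among 108721 old-labelled summits of any score and 187269 summits of all 3 lists on these chromosomes. The members were chosen by their score and by the absence of a neighbour, so both are given as descriptions and support nothing.

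The study profiled acetylation of histone H3 at lysine 9 (H3K9ac) with CUT&Tag in mouse haematopoietic stem cells (HSCs) sorted from marrow. There were 3 groups of 1 library each: young HSC from mice aged 2 to 4 months, old HSC from mice aged 18 to 24 months, and old HSC ABC, from the older age range by the letter that opens its title. ABC is not spelled out in the labels and is used here as a name. All 3 groups shared the wild-type genotype, bone marrow of femur and tibia as the source, and 50000 sorted HSCs per assay. How many mice went into each library, and which surface markers defined the sort, is not stated in the labels. With 1 library per group no difference could be tested, and no p-value is given. Age, the ABC label, the library and its sequencing depth cannot be told apart in any difference below.

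H3K9ac is laid down by acetyltransferases of the GCN5/PCAF family, is removed by histone deacetylases and marks the promoters and enhancers of active genes. In CUT&Tag an antibody tethers a transposase to the mark, so that DNA around marked nucleosomes is cut out and sequenced. HSCs sit at the top of the blood lineage and are largely quiescent; with age they become more numerous and lean towards myeloid and platelet output.

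The lists differed in length: 33248 summits young-labelled, 108787 old-labelled and 45386 ABC-labelled. The score is the authors' −log10 q-value of a summit in its own library; it depends among other things on sequencing depth, for which the sources used here give no value. Names written into the peak identifiers went against the labels: the young-labelled list carried oHSC-H3K9ac-1, the old-labelled list oHSC-ABC-H3K9ac-1 and the ABC-labelled list oHSC-H3K9ac-2. Groups below follow the labels, so "old-labelled" names a list; the files do not settle which naming is correct. Of 31 HSC identity genes, 26 had a summit within 1 kb of a start in the old-labelled list, 19 in the young-labelled and 17 in the ABC-labelled list. Over all protein-coding genes the shares were 58.2%, 44.7% and 45.8%. Procr, Mecom, Tek, Gata2, Runx1 and Meis1 were among those marked in all 3 lists, and Fli1, Hoxa9, Zfp36l2 and Prdm16 were marked in none. Hlf, Slamf1, Lmo2, Erg and Fgd5 were marked in the old-labelled list alone, and Hoxb5 in the young-labelled list alone. Kit, Cd34, Lyl1 and Mllt3 lacked a start summit in the ABC-labelled list alone, and Gfi1b, Bmi1 and Flt3 in the young-labelled list alone. Of 30 neutrophil granule genes, 18, 10 and 12 had a start summit in the old-labelled, young-labelled and ABC-labelled lists, which is near or below those shares.

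Start-site DNA shows the kinds of promoter at which members lay. The first set contrasts starts poor and rich in CpG, the dinucleotide that CpG-island promoters keep at high density. Retnlg (neutrophil secreted protein) and Il18rap (accessory chain of the interleukin-18 receptor) had few CpGs, and Stpg2 (sperm-tail protein) and Trmo (tRNA methyltransferase) had many. Each sequence holds the 250 bases upstream of the start, 5′ to 3′ on the gene's strand, from RefSeq on GRCm38.p6, the build whose coordinates are those of mm10. Capitals mark CpG. The windows are chr16:48872358-48872607, plus strand, for Retnlg; chr1:40515112-40515361, plus strand, for Il18rap; chr3:139205643-139205892, plus strand, for Stpg2; and chr4:46389424-46389673, minus strand, for Trmo.
Retnlg: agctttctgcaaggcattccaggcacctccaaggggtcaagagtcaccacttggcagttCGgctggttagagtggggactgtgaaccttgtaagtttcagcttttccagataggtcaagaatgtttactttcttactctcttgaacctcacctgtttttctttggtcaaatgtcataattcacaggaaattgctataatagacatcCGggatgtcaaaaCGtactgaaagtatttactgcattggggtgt
Il18rap: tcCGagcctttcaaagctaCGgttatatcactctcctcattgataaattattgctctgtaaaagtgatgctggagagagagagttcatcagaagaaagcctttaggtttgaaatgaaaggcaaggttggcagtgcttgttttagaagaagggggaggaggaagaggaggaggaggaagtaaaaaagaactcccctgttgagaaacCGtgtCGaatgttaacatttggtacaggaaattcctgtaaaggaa
Stpg2: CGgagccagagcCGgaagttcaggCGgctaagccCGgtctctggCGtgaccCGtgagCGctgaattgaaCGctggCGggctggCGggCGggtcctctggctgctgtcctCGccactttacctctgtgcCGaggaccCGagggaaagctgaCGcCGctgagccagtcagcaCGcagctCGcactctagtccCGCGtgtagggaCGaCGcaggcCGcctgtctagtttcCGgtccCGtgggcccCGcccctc
Trmo: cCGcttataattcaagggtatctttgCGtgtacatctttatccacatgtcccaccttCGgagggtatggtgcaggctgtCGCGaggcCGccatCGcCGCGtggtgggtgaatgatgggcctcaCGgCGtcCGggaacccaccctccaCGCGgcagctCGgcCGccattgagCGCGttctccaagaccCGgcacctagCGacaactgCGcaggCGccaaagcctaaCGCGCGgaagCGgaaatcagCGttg

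These upstream stretches held 3 CpGs at Retnlg, 4 at Il18rap, 26 at Stpg2 and 27 at Trmo. GC made up 43.2% of the Retnlg stretch, 42.0% at Il18rap, 68.4% at Stpg2 and 62.0% at Trmo. The member summits of score 35.4, 17.5, 22.8 and 19.9, in the same order, lay 339 bp downstream, 34 bp downstream, 201 bp upstream and 186 bp downstream of the start.

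The second set shows histone genes, a family found at several member starts and noticed after the members had been seen. Capitals mark CCAAT (or ATTGG, its reverse complement), the site of the factor NF-Y, and TATAAA, the core of the TATA box. The windows are chr13:22042948-22043197, plus strand, for H2bc11; chr3:96220881-96221130, minus strand, for H2ac20; and chr13:23535168-23535417, plus strand, for H3c8.
H2bc11: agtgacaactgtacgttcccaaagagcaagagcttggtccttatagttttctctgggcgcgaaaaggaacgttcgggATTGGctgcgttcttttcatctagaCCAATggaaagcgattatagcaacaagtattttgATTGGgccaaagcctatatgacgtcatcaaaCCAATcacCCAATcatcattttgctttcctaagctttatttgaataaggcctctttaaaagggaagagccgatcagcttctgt
H2ac20: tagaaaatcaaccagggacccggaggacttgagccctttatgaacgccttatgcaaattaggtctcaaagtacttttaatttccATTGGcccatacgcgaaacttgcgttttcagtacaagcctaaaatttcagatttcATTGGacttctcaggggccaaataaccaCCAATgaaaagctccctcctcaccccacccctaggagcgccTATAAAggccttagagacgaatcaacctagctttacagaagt
H3c8: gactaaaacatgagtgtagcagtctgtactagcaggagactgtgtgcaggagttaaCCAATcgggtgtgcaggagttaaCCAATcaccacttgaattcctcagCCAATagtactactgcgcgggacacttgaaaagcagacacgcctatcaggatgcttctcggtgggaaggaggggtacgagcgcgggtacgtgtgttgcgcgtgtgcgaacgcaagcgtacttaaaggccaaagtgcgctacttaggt

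CCAAT in either orientation occurred 5 times upstream of H2bc11, 3 times upstream of H2ac20 and 3 times upstream of H3c8. TATAAA occurred 1 time, at H2ac20. The members stood 7 bp downstream of the H2bc11 start (score 21.4), 20 bp downstream of the H2ac20 start (16.6) and 140 bp upstream of the H3c8 start (17.9).

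Most members sat near the score minimum. Their scores ran from 10.0001 to 83.4, with quartiles of 10.6, 11.8 and 13.5 and a 90th percentile of 16.4. The strong old-labelled summits with a neighbour in both other lists had a median of 22.2. A score of at least 15 was reached by 127 members and of at least 20 by 30. The 6 highest members stood apart: the 6th had 35.4 and the next 24.8, and 1 of the 6 lay at a gene start, at Retnlg.

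The share of strong old-labelled summits that had no neighbour fell from each score range to the next up to a score of 50. Between 10 and 11 it was 264 of 1690 (15.6%, exact 95% Clopper-Pearson interval 13.9 to 17.4). Between 15 and 20 it was 97 of 2932 (3.31%, 2.69 to 4.02), and between 30 and 50 it was 2 of 3088 (0.0648%, 0.00780 to 0.234). At 50 or more it was 4 of 1430 (0.280%, 0.0763 to 0.715). All intervals here cover counting error only, not the spread between libraries. Because the score chose the members, this describes the rule.

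**Figure D1:**
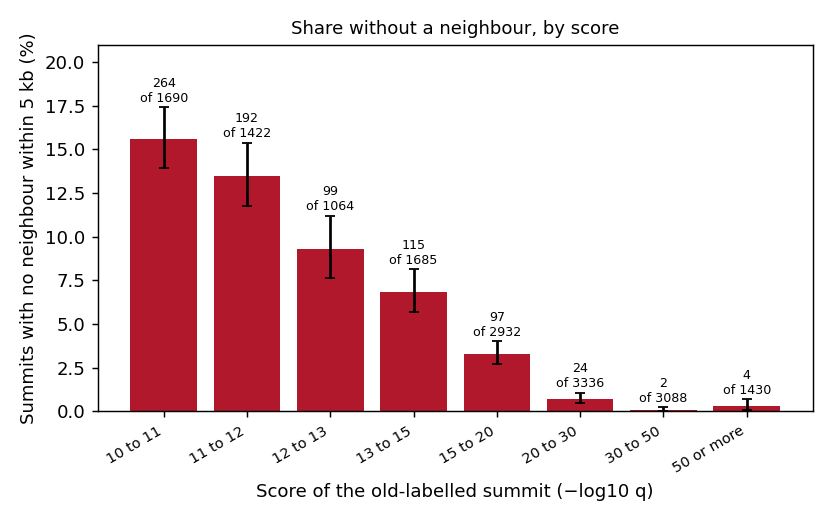
Share of strong old-labelled summits with no young-labelled or ABC-labelled summit within 5 kb (percent, y axis) by score range (−log10 q, x axis); bars are shares, whiskers exact 95% binomial intervals, and the numbers are members of summits. The share falls from 15.6% at scores of 10 to 11 to 0.0648% at 30 to 50, with 4 members at 50 or more.

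The threshold cut through a continuous range of scores. Just above 10 stood a summit at a start of Prdm1 (10.0001), a transcriptional repressor active in plasma cell and T cell differentiation. Others stood inside Thra (10.0035), a thyroid hormone receptor gene, and at H2bc22 (10.0086), a histone H2B gene. Just below 10, and otherwise meeting the rule, stood summits nearest to Gpr132 (9.9962), Spry1 (9.98) and Slc2a4 (9.98). Neighbours also came close to the 5 kb limit. Summits nearest to Metap1d and Sh3pxd2b had a neighbour at 4984 and 4964 bp and were left out, and those at Atp1b2 and inside Baz1a had one at 5001 and 5004 bp and were kept.

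Many members lay well beyond the limit. The nearer of the other lists' summits lay at a median of 11478 bp, with quartiles of 7349 and 19971 bp. It was more than 10 kb away for 443 members (55.6%), more than 20 kb for 199 (24.97%) and more than 100 kb for 33 (4.14%). The median distance was 16582 bp to the young-labelled list and 13705 bp to the ABC-labelled list. The member nearest to Kcnh5, a potassium channel gene, was 504608 bp from the closest young-labelled and 476854 bp from the closest ABC-labelled summit.

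**Figure D2:**
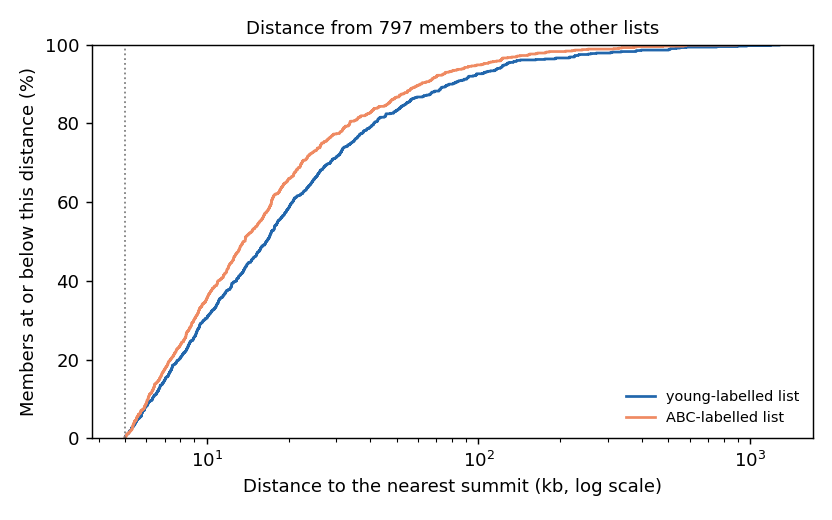
Cumulative share of the 797 members (percent, y axis) by distance to the nearest young-labelled or ABC-labelled summit (kb, log x axis); the dotted line is the 5 kb limit of the rule. The median is 16582 bp for the young-labelled and 13705 bp for the ABC-labelled list.

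Many members carried a score that recurred exactly. A score held by at least 1 other member was found at 239 of the 797 (29.99%), in 40 different values, and 57 members had the same score of 10.38. Among summits of score 10 to 15, the 6 most repeated scores took 22.4% of members (150 of 670; 19.3 to 25.7) against 6.997% of summits with a neighbour in both lists (250 of 3573; 6.18 to 7.88). With a young-labelled neighbour alone the share was 11.4% (8.94 to 14.2), and with an ABC-labelled neighbour alone 14.8% (12.7 to 17.1). Members with a recurring score lay outside genes more often, at 47.7% (41.2 to 54.2) against 34.4% (30.5 to 38.5) for the others. Without them 558 members remained, of which 20.97% (17.7 to 24.6) were at starts, against 19.4% of all members, while the share outside genes moved from 38.4% to 34.4%.

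Members had fewer companions in their own list than summits of like score with a neighbour in both other lists. Of members with a score of 10 to 15, 60.0% (56.2 to 63.7) had no other old-labelled summit within 5 kb. The share was 44.8% (43.2 to 46.5) for summits with a neighbour in both lists. With a young-labelled neighbour alone it was 53.8% (49.8 to 57.9), and with an ABC-labelled neighbour alone 59.0% (55.9 to 62.1). The intervals of members and of summits with a neighbour in both lists did not overlap, while those of members overlapped the other classes. The rule asks for no other-list summit within the same 5 kb. The direction of this difference may therefore be partly set by the choice, and the shares are descriptions. The highest number of companions around a member was 4, as at the start shared by H3c1 and H4c1.

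Position relative to genes was not itself a criterion, but the absence of a neighbour bears on it. Start summits made up 30.9% of the young-labelled and 23.7% of the ABC-labelled list, against 12.7% of the old-labelled list. The direction of a difference in position between members and summits with neighbours is therefore partly set by the choice, and the shares are descriptions. Of all members, 155 lay within 1 kb of a protein-coding start (19.4%, 16.8 to 22.4), 336 lay elsewhere in a gene record (42.2%, 38.7 to 45.7) and 306 lay outside (38.4%, 35.0 to 41.9). Start sites were at hand for 17273 of 21627 protein-coding genes; for the other 4354, either end of the record counted, which placed 26 of the 155. Among summits with a neighbour in both lists, 58.9% were at starts, but these scored higher.

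At a like score of 10 to 15, members were less often at starts and more often outside genes than summits found in both other lists. At starts were 18.1% of members (121 of 670; 15.2 to 21.2) and 29.8% of the summits with a neighbour in both (1063 of 3573; 28.3 to 31.3). Outside genes were 38.4% of members (34.7 to 42.2) and 24.3% of those summits (22.9 to 25.8). Inside genes the shares were 43.6% and 45.9%, with overlapping intervals. Summits with an ABC-labelled neighbour alone, at 16.6% (14.3 to 18.995), were at starts about as rarely as members. Those with a young-labelled neighbour alone had 28.4% (24.8 to 32.2) at starts.

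**Figure D3:**
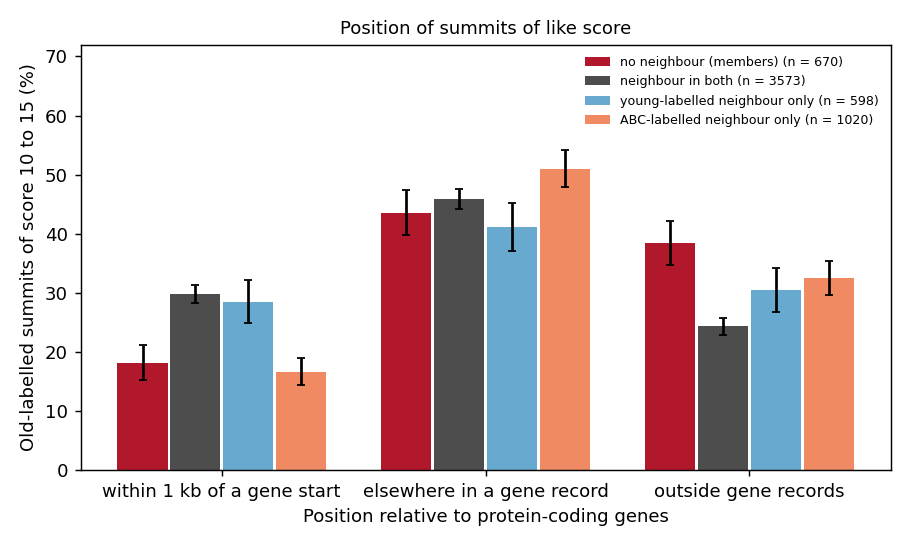
Old-labelled summits of score 10 to 15 by position (percent, y axis), for members and for summits with a neighbour in both lists, in the young-labelled list alone or in the ABC-labelled list alone; bars are shares and whiskers exact 95% binomial intervals. Members have 18.1% at starts and 38.4% outside gene records, against 29.8% and 24.3% for summits with neighbours in both.

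Of the 306 members outside protein-coding records, 69 fell in another gene record and 237 in none. Their median distance to a protein-coding start was 25849.5 bp, and for members inside genes it was 21062 bp. At a score of 10 to 15, 22.7% of members (19.6 to 26.05) were more than 50 kb from any protein-coding start, against 14.9% (13.8 to 16.1) of summits with a neighbour in both lists. The share was 15.6% (12.7 to 18.7) with a young-labelled neighbour alone and 21.96% (19.5 to 24.6) with an ABC-labelled neighbour alone. At starts of non-coding RNA genes lay 38 members, 27 of them away from protein-coding starts. Hairpins of 8 microRNA genes lay within 5 kb of a member, the closest being Mir6541 at 10 bp and Mir26a-2 at 764 bp, with scores of 10.9 and 11.3. Shares over all non-coding RNA starts and all microRNA genes were not computed, so neither count can be called high or low.

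Members at starts were arranged like start summits of any strong score with a neighbour in both lists. This comparison was not matched for score. Of the 126 with a known strand, 93 were downstream of the start (73.8%, 65.2 to 81.2), against 77.5% (76.5 to 78.5) for summits with a neighbour in both lists. Within 300 bp of the start were 55.6% and 55.4%, and the median distance was 263 and 256 bp. The intervals overlapped for both shares.

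A member within 1 kb of a start was found at 174 of 21627 protein-coding genes, 0.805% (percent of genes with a member at a start). Retnlg, which encodes a resistin-like protein of neutrophils, had the highest start member, with a score of 35.4 at chr16:48872947. A second member of score 48.2 stood at chr16:48874304 in the same gene. The nearest young-labelled summit was 120297 bp and the nearest ABC-labelled summit 120382 bp from the second member. Both old-labelled summits in the gene record were members. The other lists had none there, which the 5 kb rule sets for so short a record.

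The next start members in score were at genes of varied function. Stpg2 had a score of 22.8, with the nearest young-labelled and ABC-labelled summits 130058 and 102585 bp away. A member of 22.8 lay 178 bp downstream of the Fbxo44 start and 752 bp from the Fbxo2 start. These are a pair of genes for substrate-binding F-box subunits of ubiquitin ligases. Lrguk, needed for sperm formation, had 22.4, and Mier2, a partner of histone deacetylases, had 20.6. Rnf216, a ubiquitin ligase, Rragb, a Rag GTPase in amino-acid sensing by mTORC1, Gvin1, a large interferon-inducible GTPase, and Fhl2, a LIM-domain cofactor, each had 20.1. At Fhl2 the ABC-labelled list marked another start of the gene, and its nearest summit was 5360 bp from the member.

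Below these stood Trmo at 19.9, Dclk2, a microtubule-binding kinase, at 19.8, and Mideas, a subunit of a mitotic deacetylase complex, at 19.5. B9d2, of the ciliary transition zone, had 18.99, Ppfia3, a synaptic scaffold, 18.5, and Slc9a7, a sodium-proton exchanger, 17.9. Pfkfb4, a regulator of glycolytic flux, had 17.8, Il18rap 17.5, Ahi1, a ciliary gene, 17.2 and Dock10, a guanine nucleotide exchange factor, 17.1. Mideas and Dock10 had another start marked in both other lists, whose nearest summits were 5277 and 5127 bp or more from the member. At the X-linked genes Rragb and Slc9a7 the nearest summits of either other list were 97466 and 73305 bp away or more.

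The start members of lower score in this paragraph were named after their values had been seen. Bcl2l11 (11.7) and Bbc3 (10.4) encode the pro-apoptotic proteins BIM and PUMA, and Xiap (13.5) encodes a caspase inhibitor. The closest other-list summits were 32243 bp from the Bcl2l11 member, 17029 bp from the Bbc3 member and 17458 bp from the Xiap member. Srebf1 (13.4) encodes a regulator of lipid synthesis, and Abca1 (11.6) a cholesterol exporter. Hdac4 (13.3) is a class II deacetylase, Jund (11.1) an AP-1 subunit, Hopx (14.0) a homeodomain-only protein, E2f7 (10.4) a repressor of cell-cycle genes and Dusp5 (11.8) a phosphatase of ERK. None of these 10 genes had a start summit in the young-labelled or the ABC-labelled list, which the 5 kb rule largely sets.

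Elsewhere in gene records, the highest members were in Camk1d and Hsd11b1. The Camk1d member, in the gene of a calmodulin-dependent kinase, had 68.6 at chr2:5379328 and was 296718 bp from the nearest start of the gene. The gene held 32 old-labelled, 5 young-labelled and 12 ABC-labelled summits. The Hsd11b1 member, in the gene of the enzyme that regenerates active glucocorticoid, had 63.4 at chr1:193227818. Lower scores were found in Chil3, a chitinase-like protein of myeloid cells (24.1), and Iigp1, an interferon-inducible GTPase (23.3). Slc26a9, an anion transporter (22.9), Rec114, of meiotic recombination (22.8), Bptf, the large subunit of the NURF remodeller (22.6), and Ercc4, a DNA repair nuclease (21.4), followed. Bptf and Ercc4 had a start summit in both other lists, whereas Hsd11b1, Iigp1, Slc26a9 and Rec114 had none in either. At Iigp1, whose start was 2477 bp from the member, the 5 kb rule largely sets this.

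Outside gene records, the highest member of all had a score of 83.4 at chr17:3029955, 85017 bp from Scaf8. The second had 53.5 at chr6:3201517, 198054 bp from Samd9l. Whether either position lies in a region that attracts reads in any library was not tested. Next came members near Fcrl5, an Fc-receptor-like gene of B cells (24.8), Zfp72 (23.7), Crlf2, a cytokine receptor subunit (21.7), Dnah17, a dynein heavy chain (20.7), and Prpf6, a splicing factor (20.4). Kcnh5 (19.2), Dusp1, a MAP kinase phosphatase (18.6), and Trim43a (18.4) completed the 10. Dusp1, whose start was marked in all 3 lists, had its member 10629 bp from the start.

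Most genes nearest to a member away from starts were themselves marked at a start in another list. Of the 327 nearest genes of members inside genes, 58.7% (53.2 to 64.1) had a start summit in the young-labelled or the ABC-labelled list. For the 293 nearest genes of members outside genes the share was 61.1% (55.2 to 66.7). The nearest genes of score 10 to 15 summits with neighbours in both lists had 70.0% (67.6 to 72.4) inside and 61.6% (58.1 to 65.0) outside, and all protein-coding genes 50.2% (49.6 to 50.9). For members at starts the share was 8.55% of 152 genes, a value that the 5 kb rule largely sets.

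Histone genes, here those with numbered H2ac, H2bc, H3c, H4c or H1f names, had a member at a start more often than genes as a whole. They encode the core proteins of the nucleosome and linker histones. A member lay within 1 kb of a start of 17 of 67 histone genes (25.4%, 15.5 to 37.5), beside 0.805% of all protein-coding genes. The 17 genes shared 10 members, since many are divergent pairs, and 13 of them were on chromosome 13 and 4 on chromosome 3. The interval treats the genes as independent, so with shared members it is too narrow. Most core histone genes are transcribed in S phase of the cell cycle. H4f16 on chromosome 6, a histone gene outside these name patterns, also had a start member (11.9) and is not among the 67. The family was chosen after its members had been seen, so the share is a description.

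The highest histone member had a score of 21.4 and lay 7 bp inside H2bc11, 256 bp from the start of H2ac11. It was 7928 bp from a young-labelled and 21330 bp from an ABC-labelled summit. The H3c1 and H4c1 pair had 18.3, H3c8 17.9 and H4c8 12.2. On chromosome 3, H2ac20, H2ac21 and H2bc21 shared a member of 16.6, and H2bc18 had one of 15.5. The lowest, at H2bc22 and H2ac22, had 10.0086. Over all 67 histone genes, a start summit was listed for 54 in the old-labelled, 20 in the young-labelled and 21 in the ABC-labelled list, and 14 were marked in all 3. Among all protein-coding genes 58.2%, 44.7% and 45.8% had one, and 39.7% in all 3. Near-identical copies in this family can share reads, so the gene assignment is uncertain.

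Start windows of 300 bases (250 before to 50 after the start) were available for 128 start sites nearest to a member. Of these, 77 were CpG-rich, meaning GC of at least 50% and an observed over expected CpG ratio of at least 0.6 (60.2%, 51.1 to 68.7). The share was 68.9% (65.6 to 72.1) of 792 starts with a score 10 to 15 summit found in both lists, 45.6% of all 21044 starts and 19.01% (18.2 to 19.8) of 9058 starts with no old-labelled summit. The median CpG ratio was 0.743 at member starts and 0.745 at the score-matched starts. The intervals of those 2 classes overlapped, and both lay above that of unmarked starts.

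**Figure D4:**
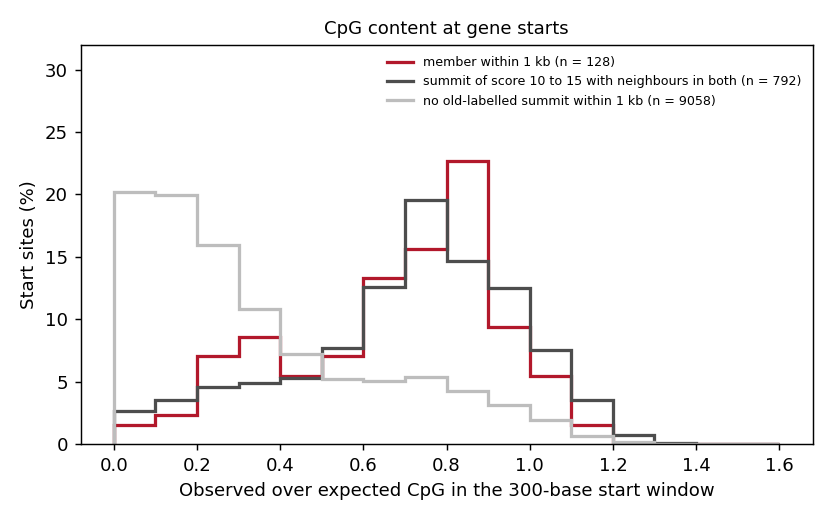
Start sites (percent of each class, y axis) by observed over expected CpG ratio of the 300-base start window (x axis, steps of 0.1), for 128 starts with a member, 792 starts with a score 10 to 15 summit that has neighbours in both lists, and 9058 starts with no old-labelled summit within 1 kb. Member starts peak at high ratios like the score-matched starts, with medians of 0.743 and 0.745, and unmarked starts peak at low ratios.

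Motif letters were counted on both strands of the same windows, and a match is a description of the letters. CCAAT was present in 59 of 128 member windows (46.1%, 37.2 to 55.1), against 33.6% (30.3 to 37.0) of score-matched windows and 38.5% of all windows. The CCAAT and TATAAA searches were added after the members had been seen. Starts of the histone genes defined above supplied 8 of the 59, and 51 of the 118 other member starts held it. H4f16 was counted with the others. The letters TATAAA were in 12 member windows (9.38%, 4.94 to 15.8), 5 of them histone starts, against 7.07% of score-matched and 12.7% of all windows. The CRE letters TGACGTCA, the palindrome bound by CREB and ATF factors, were in 7 (5.47%, 2.23 to 10.9), against 2.53% and 2.26%. The histone starts H2bc11, H4c1 and H4c8 were among the 7, and the H2bc11 stretch shown above holds the letters.

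The ETS letters CCGGAAG were in 11 member windows (8.59%, 4.37 to 14.9), against 14.8% (12.4 to 17.4) of score-matched and 11.7% of all windows. The KLF/SP letters GGGCGGG were in 55 (43.0%, 34.3 to 52.0), against 51.1% (47.6 to 54.7) and 34.2%. AP-1 (TGANTCA) was in 5.47% against 4.42%, RUNX (TGTGGTT) in 4.69% against 4.17% and PU.1 (GAGGAAGT) in 3.91% against 3.28%; all windows had 7.04%, 4.74% and 3.15%. The C/EBP letters TTGCGCAA and the NRF1 and NF-kB motifs were in 0 of 128, which allows up to 2.84% each by the exact interval; all windows had 0.223%, 1.34% and 0.428%. The intervals of member and score-matched windows overlapped for ETS and KLF/SP, and those for CCAAT met at 37.2 and 37.0 without overlap. The CCAAT comparison includes the histone starts, and no interval was taken without them. For the other motifs searched the intervals overlapped as well. AGATAA, the letters of the GATA factors, was in 7.03% of member, 3.91% of score-matched and 9.68% of all windows. The E-box letters CAGCTG (SCL type) were in 13.3%, 16.4% and 15.7%, in the same order, and CACGTG (MYC type) in 10.9%, 9.60% and 7.91%. MYB letters (AACNGNC) were in 29.7%, 29.04% and 32.02%, and the relaxed form TTNNGNAA of the C/EBP letters in 31.2%, 30.2% and 37.4%. By name, the CTCF core was in 0.781%, 2.90% and 2.34%, YY1 in 0.781%, 1.01% and 0.893%, and the interferon-response element ISRE in 2.34%, 3.03% and 3.38%.

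Most members stood alone when joined along the chromosomes. Whether they grouped more or less than an even spread, or than other strong summits, was not tested. Joined where closer than 5 kb, the 797 members made 782 loci, of which 767 held 1 member and 15 held 2. The pairs included Retnlg, Gvin1, H4c8 with H3c8, Xiap, Srebf1, Jund, Bbc3 and Thra. They also included a pair of members beside Atf3, a stress-induced transcription factor (15.1 and 10.8), and a pair 6618 and 9686 bp from the start of Fosb, an AP-1 subunit (12.3 and 10.3). Within gene records, 17 genes held 2 or more members; Frmd4b held 3, with 39 old-labelled, 9 young-labelled and 12 ABC-labelled summits in all. By chromosome, members made up between 2.55% (16 of 628, chromosome 15) and 6.31% (55 of 871, chromosome 6) of strong old-labelled summits, and 3.86% on X.

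Counted by gene, 630 of 21627 protein-coding genes had a member in the record or within 5 kb of it, 2.91% (percent of genes with a member). Of 364 genes in 15 lists of HSC, lineage and pathway genes, 10 did (2.75%, 1.33 to 4.99), a share near that of all genes. Retnlg alone had its member at a start. No list gene had a member in 9 lists: HSC ageing (30 genes), T and NK cells (20), megakaryocytes and platelets (18), stroma and endothelium (18), genes of other tissues (25), sphingolipid metabolism (41), NF-kB and inflammation (30), interferon response (23) and circadian clock (19). The upper limits of their exact intervals ran from 8.60% (sphingolipid metabolism) to 18.5% (the lists of 18), so none can be called low. Within 20 kb of the record, HSC ageing had 2 genes with a member, T and NK cells 2 and sphingolipid metabolism 1. The interferon-inducible genes Iigp1 and Gvin1, which had members, are not on the interferon list.

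Of the 31 HSC identity genes, 3 had a member, all inside the record. Etv6, a repressor needed by adult HSCs, had 12.8 with 37 old-labelled and 8 young-labelled summits in the gene. Prdm16, a maintenance factor of HSCs, had 10.5, and Flt3, a cytokine receptor of progenitors, had 14.1. Of 30 neutrophil genes, Padi4, a histone-citrullinating enzyme, had a member (15.1) besides Retnlg, 3445 bp from its start. Of the other lists, Itgam (1 of 20 monocyte and macrophage genes) had 10.8 and Epor (1 of 16 erythroid genes), the erythropoietin receptor, had 10.6. Vpreb1 and Igll1, surrogate light chain genes (2 of 16 B-cell genes), shared a member of 10.7 that lay in neither record. Nfe2l2 (1 of 36 ferroptosis genes), the antioxidant regulator NRF2, had 16.6, with the nearest other-list summits 20270 and 20272 bp away.

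Summits of this kind were rare in the other lists as deposited. With the same rule turned to each list in turn, 2 of 6050 strong young-labelled summits (0.0331%, 0.00400 to 0.119) and 3 of 5535 strong ABC-labelled summits (0.0542%, 0.0112 to 0.158) had no neighbour in the other 2 lists. The old-labelled list was the longest, with 108721 summits on these chromosomes against 33208 and 45340. Among the 5535 highest-scoring old-labelled summits, 6 had no neighbour in the full other lists (0.108%, 0.0398 to 0.236). With the lists brought to equal length at 5535 summits each, by score, the share without a neighbour was 12.2% (11.3 to 13.1) in the old-labelled list, 12.3% (11.4 to 13.2) in the young-labelled list and 15.8% (14.9 to 16.8) in the ABC-labelled list. At 33208 summits per list it was 21.2%, 21.9% and 22.2%. At 10000 it was 12.2% old-labelled, 11.9% young-labelled and 16.3% ABC-labelled, and at 20000 it was 19.2%, 19.1% and 22.04%. In lists of equal length the old-labelled share was thus close to the young-labelled one at each of the 4 lengths, with overlapping intervals, and below the ABC-labelled one.

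**Figure D5:**
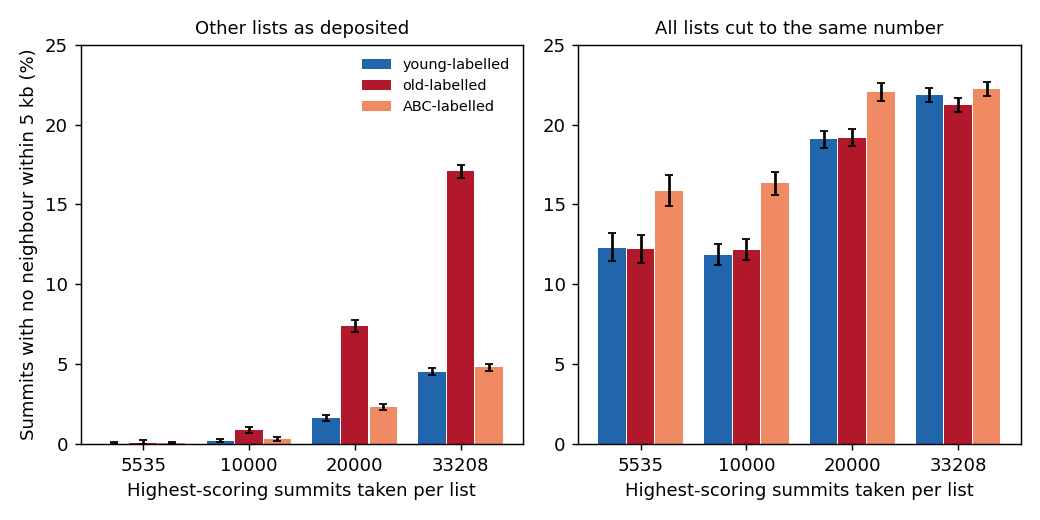
Share of the highest-scoring summits of each list with no summit of the other 2 lists within 5 kb (percent, y axis), by the number of summits taken (x axis); left, other lists at full length, and right, all lists limited to that number, with exact 95% binomial intervals. At 33208 summits the old-labelled share is 17.1% on the left, above the 4.54% and 4.81% of the others, and 21.2% on the right, beside 21.9% and 22.2%.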

How the data were processed

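H3K9ac CUT&Tag summit lists of 3 libraries, 1 per group, were used. The tools named in the submitters' processing notes are BWA, Picard, MACS2 and edgeR, with mm10 as the build; their roles, versions and settings, and any control library, are not stated there. Each deposited list holds summits of 1 bp with a score, read as the authors' −log10 q-value within that library, since the lowest value of every list is the −log10 of 0.05 or little more. Each list belongs to 1 sample, so summits were taken as called per library. Read depth is unknown.

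Groups were taken from the labels. The nearest summit in each other list was found for every old-labelled summit on chromosomes 1 to 19 and X. Gene records, start sites and start sequences came from RefSeq tables of GRCm38.p6. The promoter table lacks some genes, for which both record ends were used. Summit-centred windows needed a genome and were not analysed here, so composition and motifs refer to start windows. Exon, intron and UTR positions and regions known to attract reads in any library were not analysed here. Other regions of like score (10 to 15) served for comparison.

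Groups of 1 library allow no test. Shares are given with exact 95% Clopper-Pearson intervals. The rule was checked on simulated lists. The members, gene lists and alternatives were chosen with earlier results of these data known. Genes named are the 25 with the highest start members, the 10 highest inside and 10 outside gene records (leaving out Gm, Rik and Olfr names), those at the score limit, and list genes with a member; others are said to be chosen after their values were seen. A gene that met this rule is not reported here. Python 3.11.15, numpy 2.4.6, pandas 2.3.3, scipy 1.17.1 and matplotlib 3.10.9 were used. Alternatives varied the score minimum, the distance, the start window, merging, gene records and list length.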

Additional observations from a re-analysis of the deposited data

Results flagged for a closer look

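Outside the chromosomes described in the report, the old-labelled list held 5 strong summits on chromosome Y with no young-labelled or ABC-labelled summit within 5 kb, out of 8 strong ones there. The young-labelled and ABC-labelled lists had 0 strong summits on Y, among 3 and 2 of any score. The 5 summits had scores of 20.98, 16.5, 15.03, 14.2 and 11.1, and the records Mid1-ps1 and Gm33272 lay within 1 kb of the first and second. All 5 lay between chrY:90752342 and chrY:90799341, so they were not spread along the chromosome. Whether they relate to the sex of the mice was not tested.

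On unplaced contigs, 2 of 27 strong old-labelled summits had no counterpart (scores 24.6 and 14.2), and the other lists had 0 among 17 and 20. The sex of the mice behind each library is not stated in the labels.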

How the results depend on the processing

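Of 50 alternative values for the main results, 27 stayed close to the reported value and 23 moved; close means within 1.5 times for a count and within the exact 95% interval of the reported value for a share. The number of members moved from 797 to 9637 at a score of at least 5, 127 at 15 and 30 at 20, to 443 and 199 with no other summit within 10 and 20 kb, and to 6 among the 5535 highest-scoring old-labelled summits. It was 1178 at 1 kb, 1004 at 2 kb, 1019 with the ABC-labelled list shortened to the length of the young-labelled one, and 558 without recurring scores. The share at starts was 14.9% with a 500 bp window, 26.8% at a score of at least 15 and 27.2% with all gene records. The share inside genes was 45.9% with the 500 bp window and 34.6% at a score of at least 15. The share outside was 42.0% with a 10 kb distance, 27.6% with all gene records and 34.4% without recurring scores. CpG-rich starts were 68.8% at a score of at least 15. Genes with a member were 999 within 20 kb of the record, 110 at a score of at least 15 and 314 with a 10 kb distance; list genes were 19, 3 and 4 under the same settings. Loci of 2 members were 4 joined below 1 kb and 24 below 20 kb. The settings themselves take in more or fewer summits, windows or records, and no other cause was tested.

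The comparisons with equal list lengths and without recurring scores were chosen after seeing the data. No paired analysis was possible because each group has 1 library. For the same reason no replicate was left out. Windows around summits and the alternative that leaves out soft-masked repeats were not run, because they need a genome. Depth can change both the score and the length of a list; it is unknown here, and its part was not tested.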
